A study of Mus musculus with 6 samples.

Results

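The natriuretic peptide system was followed through 7 genes of the mouse heart: the peptide hormone genes Nppa and Nppb, the processing protease genes Corin and Furin, and the receptor genes Npr1, Npr2 and Npr3. The genes were chosen by symbol, and all 7 were present among the 12824 genes of the table and among the 12686 that passed the filter on low counts. RNA came from whole hearts of C57BL/6 mice that were 2 months old, perfused with phosphate-buffered saline before freezing. The knockout (KO) hearts, n = 3, carried loxP sites in both copies of the splicing factor gene Srsf4 together with a Cre recombinase driven by Nkx2.5. The control hearts, n = 3, carried the floxed gene alone. Nkx2.5 is expressed in cells of the cardiac lineage, so cells outside it are not expected to lose the gene, and because no control had Cre, the driver and the deletion cannot be told apart. Library codes of the KO hearts also have another prefix than those of the controls, so whatever goes with that code cannot be told apart from genotype. Nothing in the labels says whether hearts shared a litter.

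Natriuretic peptides are hormones that heart muscle cells release when they are stretched. Nppa encodes the precursor of atrial natriuretic peptide and Nppb that of B-type natriuretic peptide. Nppa is expressed most in atria, and both genes are known to rise in the stressed ventricle. Corin, a protease on the surface of heart muscle cells, cuts the Nppa precursor, and furin, a protease of the secretory pathway, is one of the enzymes that cut the Nppb precursor and also activates other proteins. Npr1 encodes the guanylyl cyclase receptor of both cardiac peptides, Npr2 the cyclase receptor of C-type natriuretic peptide, and Npr3 the clearance receptor, which has no cyclase and takes peptide out of circulation. The cyclase receptors make cGMP, which acts on protein kinase G and is broken down by phosphodiesterases.

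Nppb and Nppa are neighbours in the same orientation on chromosome 4. The table places Nppb (ENSMUSG00000029019) at 147985788 to 147987205 and Nppa (ENSMUSG00000041616) at 148000722 to 148002079, on the plus strand of GRCm38, with 13516 bases between them. Each has 3 exons in its longest coding transcript (GENCODE M21). Srsf4 lies on the same chromosome, 16099016 bases before Nppa, and was floxed in both groups. Because Nppb passed the test and its neighbour Nppa did not, as given further on, the 250 bases before the RefSeq start of each gene (plus strand, GRCm38.p6) are shown here, with capitals marking the matches of the motifs listed next.
Nppb, chr4:147985650-147985899: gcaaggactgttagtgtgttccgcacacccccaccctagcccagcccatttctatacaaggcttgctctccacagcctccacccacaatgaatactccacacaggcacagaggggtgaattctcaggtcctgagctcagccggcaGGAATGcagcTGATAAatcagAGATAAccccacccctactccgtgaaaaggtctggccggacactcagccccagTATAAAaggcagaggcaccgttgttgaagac
Nppa, chr4:148000472-148000721: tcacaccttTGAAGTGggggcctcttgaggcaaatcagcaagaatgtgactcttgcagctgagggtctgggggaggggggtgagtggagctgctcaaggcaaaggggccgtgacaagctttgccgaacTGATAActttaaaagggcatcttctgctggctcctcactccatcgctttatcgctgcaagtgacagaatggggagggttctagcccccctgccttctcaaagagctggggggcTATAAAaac

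The motifs were searched on both strands, and in neither window did matches of different motifs overlap. The GATA motif written TGATAA matched Nppb from -95 to -90 and Nppa from -122 to -117, counted from the RefSeq start, against 7.94% of all 32851 RefSeq promoter windows of that length. The other GATA spelling, AGATAA, matched Nppb from -84 to -79 (9.99% of all windows), and the MCAT motif of TEAD factors, GGAATG, matched Nppb from -105 to -100 (12.6% of all windows). These 3 matches of Nppb thus stand in 1 short stretch of its window. The NKX2-5 motif, TNAAGTG, matched Nppa from -241 to -235 (10.1% of all windows) and not Nppb. TATAAA matched Nppb from -31 to -26 and Nppa from -9 to -4 (12.4% of all windows). The CArG box of SRF, written CCWWWWWWGG with W for A or T, was found in neither (1.47% of all windows). Looser spellings of the CArG box, such as the CTTTAAAAGG beside the TGATAA of Nppa, were not searched. The table's start of Nppb lies 112 bases upstream of the RefSeq start used here. A match describes letters, and no binding was measured.

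The libraries held 59810975 to 74941323 estimated counts. Levels are CPM, the estimated counts divided by the TMM-scaled library size, as mean ± SD over 3 hearts, and fold changes and adjusted p are from edgeR's quasi-likelihood test over all genes, with Benjamini-Hochberg adjustment and a threshold of 0.05. The level of Srsf4 was 9.77 ± 1.24 CPM for KO libraries and 23.1 ± 0.893 CPM for control libraries, so the libraries followed their labels. General heart muscle markers were high in every library (8 of 8 measured, summed level 47222 to 49289 CPM in KO and 46876 to 49193 CPM in control hearts). The second principal component (17.4% of the variance) set KO 1, at 34.7, apart from KO 2 and KO 3, at -17.5 and -13.2, with the controls between -8.20 and 6.41. Results for the peptide genes that rest on KO 1 are given with and without it. These are whole-heart RNA samples, in which fewer cells of a type and less RNA per cell cannot be told apart.

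Nppb was the member that passed the test, and it rose 2.62-fold; 3.29% of all tested genes rose and 2.74% fell. It had 75.1, 197 and 135 CPM in KO hearts 1 to 3, against 58.2, 44.6 and 52.8 CPM in control hearts 1 to 3. Every KO heart stood above every control heart, a pattern of 13.7% of tested genes in this direction, with KO 1 nearest to the controls and KO 2 farthest. On the log2 scale the difference was 1.39, its standard error (SE) 0.31 and its adjusted p by edgeR 0.0469. The counts behind these levels were 5241 to 12705 in KO and 2835 to 4512 in control libraries, so sampling of reads adds little to the spread. Without KO 1 the log2 fold change was 1.68 (edgeR adjusted p = 0.00104). The call was lost in each fit that left out any other library (edgeR adjusted p 0.0833 to 0.163, log2 fold change 1.02 to 1.48) and with limma-trend (adjusted p = 0.0591). In the authors' deposited table the log2 fold change is 1.39 with an adjusted p of 3.85e-06.

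Nppa did not pass the test, and its KO hearts differed more from each other than from the controls. KO hearts had 39.6, 237 and 185 CPM, against 223, 160 and 195 CPM in control hearts. KO 2 and KO 3 lay within or just above the control range, while KO 1 was below all other hearts, at 0.187 of the mean of KO 2 and KO 3. On the log2 scale the difference was -0.32 with all hearts (SE 0.54, adjusted p by edgeR 0.791) and 0.13 without KO 1 (SE 0.15, adjusted p 0.563). The coefficient of variation of Nppa was 66.5% in KO hearts, above 99.2% of tested genes, and 16.5% in controls. KO 1 was also the lowest KO heart for Nppb, at 0.452 of the mean of KO 2 and KO 3.

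Atrial tissue is the richest source of Nppa, so its other markers are set beside it. Of 13 atrial markers listed, 7 were measured, and Stard10 alone passed the test, as lower in KO hearts. Their summed level was 152, 122 and 132 CPM in KO hearts 1 to 3, against 170 to 180 CPM in controls. KO 1, lowest for Nppa, was thus the highest KO heart for this sum. Most of the sum was Kcnj3 and Kcnj5, at 53.1 and 73.2 CPM in KO 1, where both were highest among KO hearts. Of the others, Nr2f1 and Nr2f2 were lowest in KO 1 among KO hearts, and Kcna5 and Myl4 lay between KO 2 and KO 3. The atrial light chain gene Myl4 was low throughout, at 1.26 ± 0.0937 CPM in KO and 1.74 ± 0.209 CPM in control hearts, where the ventricular light chain gene Myl2 had 6499 ± 1535 and 7748 ± 652 CPM. Myl7, Sln, Bmp10, Mybphl, Dkk3 and Fgf12 were not analysed here. Fibroblast markers (8 of 8 measured) moved in the same library as Nppa, with a summed level of 313 CPM in KO 1 against 677 and 595 CPM in KO 2 and KO 3 and 540 to 583 CPM in controls. Other marker sums also set KO 1 apart from KO 2 and KO 3. Ventricular markers (7 of 7) summed to 14390 CPM in KO 1, 9802 and 10147 CPM in KO 2 and KO 3, and 11622 to 13812 CPM in controls. Nearly all of that sum was Myl2 and Myl3, at 8256 and 6088 CPM in KO 1. Among KO hearts, Irx4 and Hey2 were also highest in KO 1, Irx5 and Mpped2 were lowest there, and Kcne1 was in between. Conduction system markers (6 of 7) summed to 14.3 CPM in KO 1, 21.2 and 21.7 CPM in KO 2 and KO 3, and 25.4 to 34.9 CPM in controls. Sums of endothelial, smooth muscle and macrophage markers were lowest in KO 1 of all 6 libraries, at 0.796, 0.819 and 0.783 of the mean of KO 2 and KO 3. Not every marker followed its sum. Among KO hearts, Hcn4 (conduction system), Egfl7 (endothelium) and Acta2 (smooth muscle) were highest in KO 1. Fabp4 and Cldn5 of endothelium and Kcnj8 of smooth muscle lay between KO 2 and KO 3. The 7 measured macrophage markers were each lowest in KO 1 among KO hearts. The part of these marker differences in the Nppa values was not tested.

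**Figure D1:**
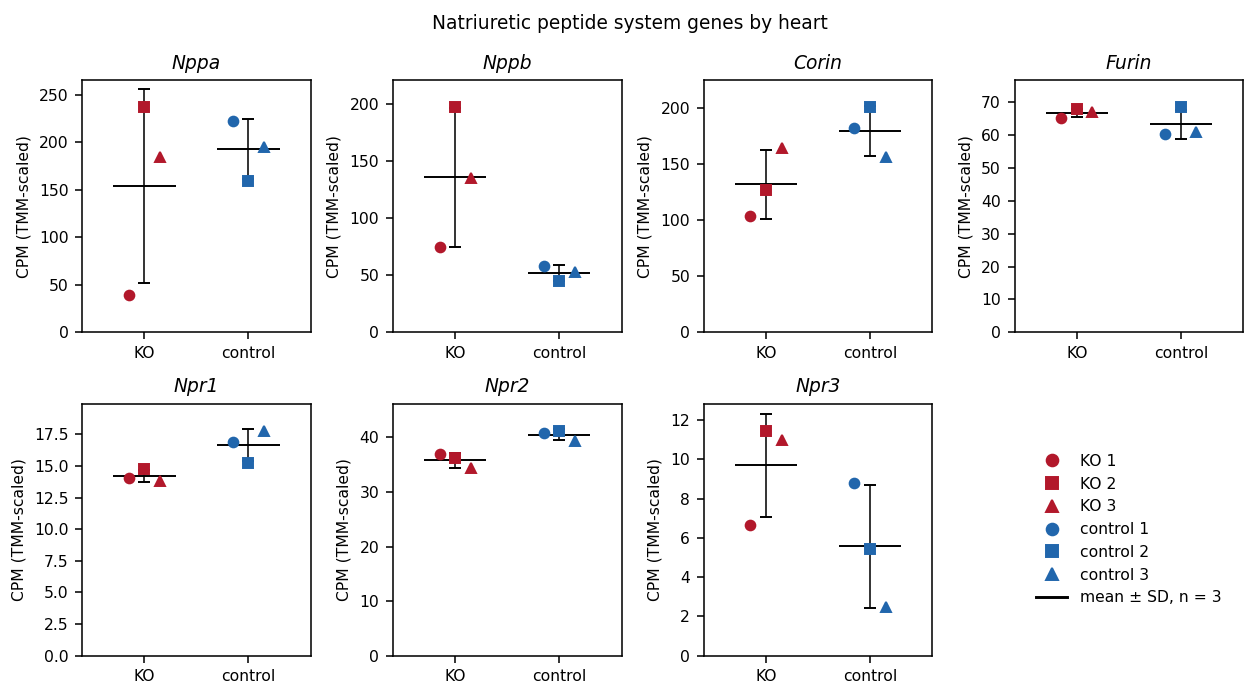
Levels of the 7 genes in each heart, in CPM on axes that start at 0, KO on the left of each panel and control on the right; points are hearts and bars are mean ± SD, n = 3. The KO hearts of Nppb, at 75.1 to 197 CPM, lie above all controls, those of Npr1 and Npr2 lie below all controls, and Nppa has 1 low KO heart at 39.6 CPM.

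The ratio of the peptide genes within a library does not depend on how libraries are scaled. Nppb had 1.90, 0.832 and 0.731 counts per Nppa count in KO hearts 1 to 3, against 0.261, 0.279 and 0.270 in control hearts 1 to 3. The controls agreed closely, and each KO heart was above all of them, KO 1 with low Nppa and KO 2 and KO 3 with higher Nppb. The mean log2 ratio was 0.07 ± 0.75 in KO and -1.89 ± 0.05 in control hearts (SD, n = 3 each), a difference of 1.96 on the log2 scale or 3.88-fold. The exact two-sided permutation test gave p = 0.1, the smallest that 3 against 3 hearts allow. Without KO 1 the difference was 1.53. Summed over both genes, peptide RNA was 115, 434 and 320 CPM in KO hearts and 281, 204 and 248 CPM in control hearts, so that KO 1 was below and KO 2 and KO 3 above every control.

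**Figure D2:**
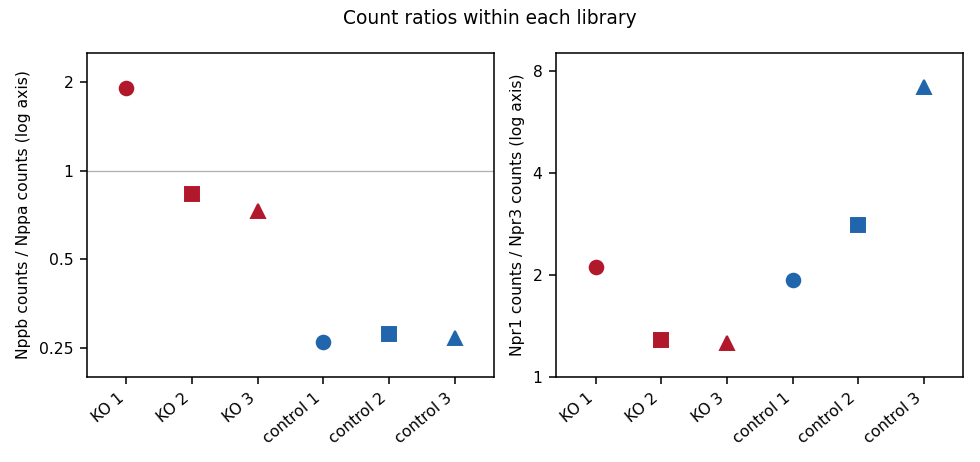
Ratio of raw estimated counts within each library, on log axes, for Nppb over Nppa (left) and Npr1 over Npr3 (right); each point is 1 heart, KO on the left and control on the right. The Nppb to Nppa ratio is 0.731 to 1.90 in KO hearts and 0.261 to 0.279 in controls, while the receptor ratios overlap.

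Corin and Furin, the processing enzymes, did not pass. Corin (ENSMUSG00000005220, chromosome 5, 72300025 to 72504473, minus strand) had 104, 127 and 165 CPM in KO hearts, against 182, 201 and 156 CPM in control hearts. KO 1 and KO 2 were below all controls, but KO 3 was above control 3, so the groups overlapped. Its log2 fold change was -0.45 (SE 0.17, edgeR adjusted p = 0.197). Furin (ENSMUSG00000030530, chromosome 7, 80388585 to 80405436, minus strand) had the closest values of the members, at 65.4, 68.0 and 67.1 CPM in KO hearts against 60.5, 68.5 and 60.9 CPM in control hearts. Control 2 stood above every KO heart, and the log2 fold change was 0.08 (SE 0.08, edgeR adjusted p = 0.634). With total counts as the only scaling the log2 fold change of Furin was -0.061; that scaling moves all genes, whose median was -0.14 under it and -0.0032 under TMM.

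The cyclase receptor genes were slightly lower in KO hearts, without passing the test. Npr1 (ENSMUSG00000027931, chromosome 3, 90450591 to 90465866, minus strand) had 14.1, 14.7 and 13.8 CPM in KO hearts against 16.9, 15.3 and 17.8 CPM in control hearts. Npr2 (ENSMUSG00000028469, chromosome 4, 43631935 to 43651244, plus strand) had 36.9, 36.2 and 34.3 CPM in KO hearts against 40.8, 41.2 and 39.4 CPM in control hearts. In both genes all KO hearts were below all controls, a pattern shown by 13.5% of all tested genes in this direction. The log2 fold changes were -0.23 (SE 0.09, edgeR adjusted p = 0.18) for Npr1 and -0.18 (SE 0.07, edgeR adjusted p = 0.197) for Npr2. Both passed as lower in KO hearts with total counts as the only scaling, at log2 fold changes of -0.37 for Npr1 and -0.31 for Npr2 (edgeR adjusted p = 0.0421 and 0.0395), beside a median of -0.14 over all genes. Both also passed with limma voom and sample weights (adjusted p = 0.0408 for Npr1 and 0.0273 for Npr2).

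Npr3 (ENSMUSG00000022206, chromosome 15, 11839896 to 11905674, minus strand), the clearance receptor, was variable in both groups. It had 6.68, 11.5 and 11.0 CPM in KO hearts, against 8.78, 5.44 and 2.49 CPM in control hearts. KO 2 and KO 3 were above all controls, while KO 1 was below control 1. The log2 fold change of 0.79 (SE 0.42) did not pass (edgeR adjusted p = 0.328), and over the fits that left out 1 library it ranged from 0.44 without control 3 to 1.29 without control 1. The coefficient of variation of Npr3 in controls, 56.5%, was above 99.5% of tested genes. Endocardium, the inner lining of the heart, is a known site of Npr3; the other 5 of its 7 listed markers that were measured summed to 53.0 to 59.7 CPM in KO and 56.3 to 83.6 CPM in control hearts, and control 3 was the lowest control for this sum as for Npr3. Their part in the Npr3 values was not tested. Npr1 had 2.11, 1.29 and 1.26 counts per Npr3 count in KO hearts, against 1.93, 2.80 and 7.15 in control hearts. This ratio of cyclase to clearance receptor overlapped between the groups (log2 difference -1.17, exact two-sided permutation p = 0.2), and without control 3 the difference was -0.63.

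Taking the members together, 1 of 7 passed the test, where 6.03% of all tested genes did. An unadjusted p under 0.05 was found in 4 of 7, where 21.5% of all tested genes had one. Whether the 7 genes differ from that background was not tested, and 1 call among so few genes cannot tell. In 3 of 7 the groups did not overlap, where 27.2% of all tested genes showed this, with Nppb above and Npr1 and Npr2 below the controls. The median log2 fold change of the 7 was -0.18, against -0.0032 over all tested genes. In the authors' deposited table, where 6.43% of 12824 genes have an adjusted p under 0.05, Nppb is again the member under it, and Corin is next at 0.0824.

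**Figure D3:**
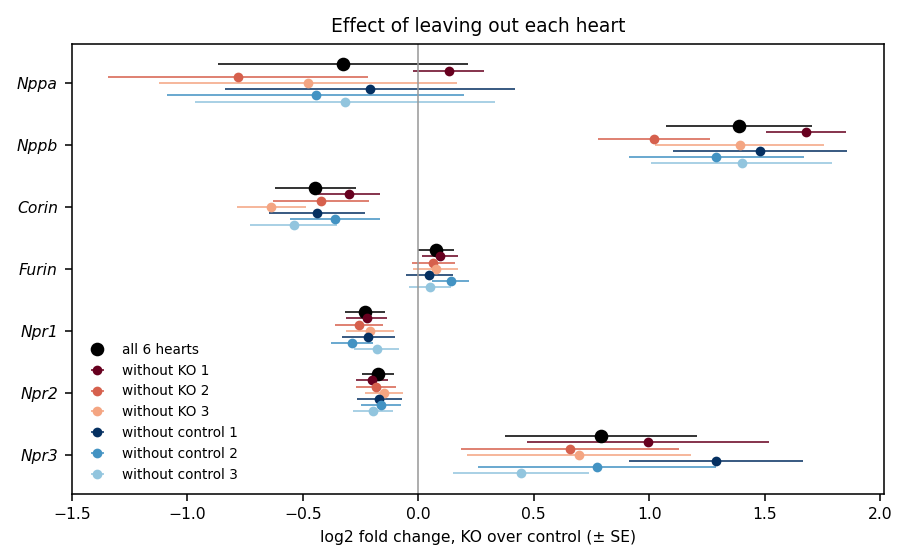
Log2 fold changes of the 7 genes, KO over control, with their SE as horizontal bars, in the fit of all 6 hearts (black) and in fits that leave out 1 heart each (colours). Nppb stays between 1.02 and 1.68 and Nppa crosses 0 without KO 1, where it is 0.13.

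Expressed per kilobase of the longest coding transcript, the members kept a wide range of levels. In KO hearts Nppa had 178 ± 118 and Nppb 174 ± 78.1 CPM per kilobase, followed by Corin at 27.2 ± 6.29, Furin at 15.4 ± 0.304, Npr2 at 9.79 ± 0.368, Npr1 at 3.49 ± 0.122 and Npr3 at 1.41 ± 0.382. In control hearts the order was the same, with Nppa at 223 ± 36.7, Nppb at 66.4 ± 8.76, Corin at 37.0 ± 4.60, Furin at 14.6 ± 1.04, Npr2 at 11.1 ± 0.270, Npr1 at 4.10 ± 0.316 and Npr3 at 0.808 ± 0.457 CPM per kilobase. Neighbours in this order did not overlap between libraries of a group, with the exception of Nppa and Nppb in KO hearts, whose ranges were 45.7 to 274 and 96.1 to 252. Among all tested genes, the control level per kilobase of Nppa was above 98.2% and that of Npr3 above 17.4%.

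Genes of similar pattern were sought among 10314 annotated genes that averaged 1 or more in log2 CPM. The 5 whose log2 CPM followed Nppa most closely over the 6 libraries were Qpct, Lpcat1, Cnn3, Myof and Cd97, with Pearson r of 0.992 to 0.998. In all 5, KO 1 was the lowest library, as it was for Nppa; Myof, which encodes the membrane repair protein myoferlin, had 1.95, 4.65 and 4.44 CPM in KO hearts and 4.04 to 4.40 CPM in controls. The 5 closest to Nppb were Tmem209, Adcyap1r1, Uck2, Map1b and Cyr61, with r of 0.985 to 0.996. In these KO 2 was the highest library, and of them Cyr61, a matricellular protein gene, passed the test (25.5, 38.7 and 30.8 CPM in KO hearts against 19.2, 17.9 and 20.3 CPM in control hearts, edgeR adjusted p = 0.0344). These values describe 6 points that share libraries and genotype groups. Because the genes were chosen by this correlation, a shared lowest or highest library largely follows from the choice. The correlation between Nppa and Nppb themselves was 0.17.

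Beyond the members, 7 of 11 other listed genes of ligands, processing, granules and clearance were tested (median log2 fold change 0.20). Where 3.29% of all tested genes rose and 2.74% fell, 1 of these 7 rose and none fell. The gene that rose was Pam, the peptide-amidating enzyme known as an abundant membrane protein of atrial secretory granules. It had 483, 606 and 526 CPM in KO hearts against 372, 374 and 353 CPM in control hearts, 1.47-fold higher (log2 fold change 0.56, SE 0.10, edgeR adjusted p = 0.0232). The groups did not overlap, as in 13.7% of tested genes in this direction. With total counts Pam missed the threshold (adjusted p by edgeR 0.0509), as it did without KO 3 or without a control (0.0734 to 0.12). Ide, the insulin-degrading enzyme, which also cuts natriuretic peptides, had 64.3 ± 5.14 CPM in KO and 56.1 ± 3.91 CPM in control hearts and did not pass (edgeR adjusted p = 0.264). Ide passed as higher without KO 1 (edgeR adjusted p = 0.0426) and with limma voom and sample weights (adjusted p = 0.0226). Nppc, Ostn, Chga and Chgb were not analysed here.

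Of 15 tested cGMP effectors, 2 rose and 1 fell, where 3.29% of all tested genes rose and 2.74% fell. The other 12 effectors did not pass, and the median log2 fold change of the 15 was 0.02. The 3 that passed were all phosphodiesterase genes. Pde2a, whose enzyme is stimulated by cGMP, had 28.1, 35.3 and 31.7 CPM in KO hearts against 50.9, 50.2 and 56.0 CPM in control hearts. It was 1.65-fold lower (log2 fold change -0.72, SE 0.10, edgeR adjusted p = 0.00705). The groups did not overlap, as in 13.5% of tested genes in this direction. Pde2a is also expressed in endothelium. The 7 measured endothelial markers summed to 813 to 1109 CPM in KO and 939 to 1086 CPM in control hearts, with none called. Fabp4 was the largest part of this sum. By log2 fold change, 5 of the 7 markers were lower in KO hearts and 2 were higher. The part of endothelium in the Pde2a values was not tested. Pde3a and Pde3b, whose enzymes break down cAMP and are inhibited by cGMP, were higher.

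Pde3a had 93.3, 80.05 and 108 CPM in KO hearts against 63.2, 66.5 and 66.5 CPM in control hearts, 1.43-fold higher (edgeR adjusted p = 0.0416). Pde3b had 2.89, 3.26 and 3.41 CPM in KO hearts against 1.64, 1.98 and 1.82 CPM in control hearts, 1.76-fold higher (edgeR adjusted p = 0.0165). In both genes all KO hearts lay above all controls, as in 13.7% of tested genes. Pde3a missed the threshold with total counts, with the heart number as a block, without KO 3 and without a control. Its adjusted p by edgeR was 0.0623 to 0.185 in these fits. Pde3b missed it without KO 2, KO 3 or a control (adjusted p by edgeR 0.0509 to 0.0964). Pde2a passed in every one of these fits, with an adjusted p of at most 0.0372. Pde1c, named after its values were seen as just outside the threshold, had 66.2 ± 14.6 CPM in KO and 41.5 ± 3.28 CPM in control hearts (edgeR adjusted p = 0.0538). Pde1c passed with the authors' scaling factors (edgeR adjusted p = 0.0464), with DESeq2 (0.00146), with voom (0.000922) and in edgeR without KO 1 (0.000879). Pde5a and Pde9a, the cGMP-selective enzymes, did not pass, at log2 fold changes of 0.21 for Pde5a and -0.08 for Pde9a.

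**Figure D4:**
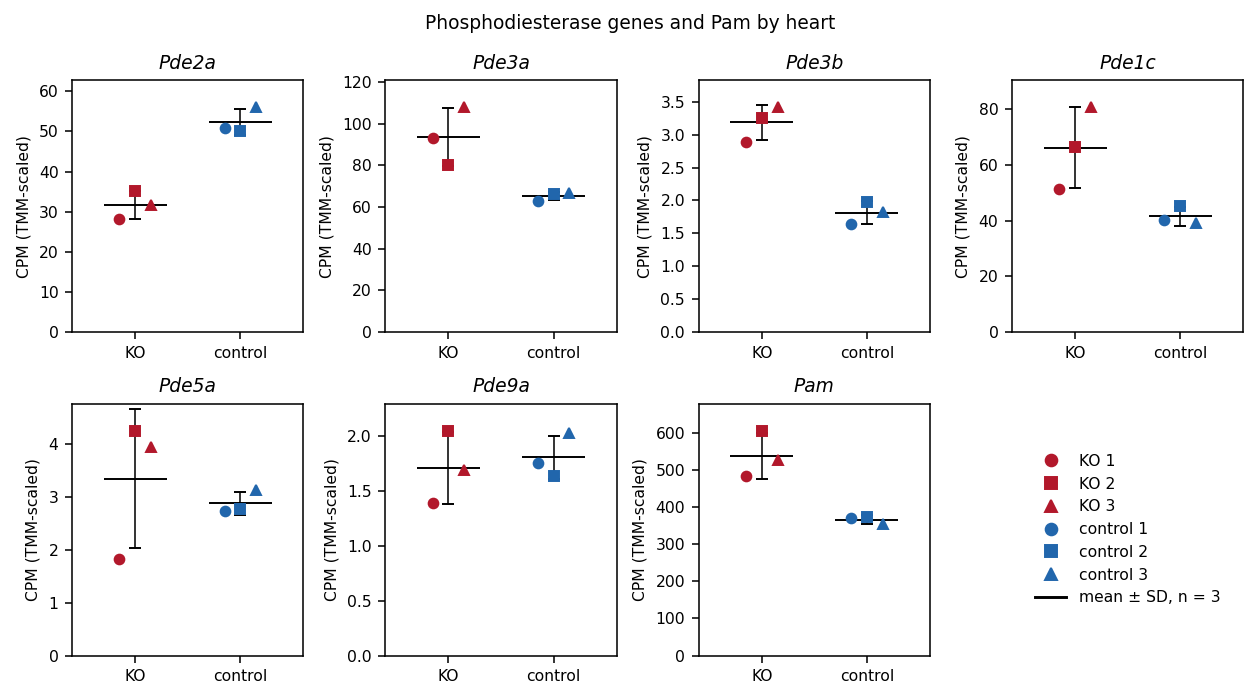
Levels of 6 phosphodiesterase genes and of Pam in each heart, in CPM on axes that start at 0, KO on the left and control on the right of each panel; points are hearts and bars are mean ± SD, n = 3. Pde2a is lower in all KO hearts (28.1 to 35.3 CPM) than in the controls (50.2 to 56.0 CPM), and Pde3a, Pde3b and Pam are higher in all KO hearts.

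In the nitric oxide branch, the other source of cGMP, none of 7 tested genes passed in edgeR or DESeq2, and limma voom with sample weights called 2. In edgeR, 1 of the 7 had an unadjusted p under 0.05, against 21.5% of all tested genes. The gene with the smallest p was Nos2, the inducible nitric oxide synthase, at 3.52, 6.39 and 5.75 CPM in KO hearts and 8.45, 6.98 and 8.72 CPM in control hearts (edgeR adjusted p = 0.151). Next was Gucy1a2, a soluble guanylyl cyclase subunit, at 1.77 ± 0.661 CPM in KO and 1.05 ± 0.459 CPM in control hearts (edgeR adjusted p = 0.322). Without KO 1, 3 of the 7 passed in edgeR, among them Nos2 as lower (adjusted p = 0.0409) and Gucy1a2 as higher (0.0408). The 2 calls of limma voom were also Nos2 (adjusted p = 0.0224) and Gucy1a2 (0.0137).

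Of 31 tested factors known to act on the Nppa or Nppb promoters, none rose and 3 fell. Over all tested genes, 3.29% rose and 2.74% fell. The median log2 fold change of the 31 factors was 0.02. Nkx2-5, which activates Nppa and whose name the Cre driver carries, had 18.7, 19.6 and 20.9 CPM in KO hearts against 39.9, 36.4 and 38.0 CPM in control hearts (1.93-fold lower, edgeR adjusted p = 0.000652). Nfatc2, a calcineurin-responsive factor, had 8.71, 8.33 and 7.94 CPM in KO hearts against 14.9, 14.3 and 12.8 CPM in control hearts (1.68-fold lower, edgeR adjusted p = 0.00394). Hey2, a transcriptional repressor of the ventricular wall, had 2.12 ± 0.103 CPM in KO and 3.84 ± 0.199 CPM in control hearts (1.81-fold lower, edgeR adjusted p = 0.0059). All 3 passed in every fit that left out 1 library. The Nkx2-5 levels of the 3 KO hearts lay close together, where those of Nppa did not. Any link between the levels of Nkx2-5 and Nppa was not tested. Of the factors whose motifs were searched above, Gata4 had 84.7 ± 6.36 CPM in KO and 78.5 ± 4.17 CPM in control hearts. Gata6 averaged 32.6 CPM in KO and 38.1 CPM in control hearts, a log2 fold change of -0.23, and that of Tead4 was 0.058. Tead1 had 132 ± 31.0 CPM in KO and 94.9 ± 16.9 CPM in control hearts. Srf, whose motif was not found in the spelling searched, had 70.3 ± 0.914 CPM in KO and 58.2 ± 1.26 CPM in control hearts. None of these 5 passed in edgeR, with adjusted p of 0.0554 for Srf and 0.222 to 0.881 for the others.

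Of 10 tested genes that flank the peptide pair on chromosome 4, none passed in edgeR, where 6.03% of all tested genes did. An unadjusted p under 0.05 was found in 1 of them, against 21.5% of all tested genes. Agtrap, which encodes a protein that binds the angiotensin receptor, had the smallest p, at 39.3 ± 0.969 CPM in KO and 32.6 ± 1.61 CPM in control hearts (edgeR adjusted p = 0.0788; DESeq2 adjusted p = 0.0133). Miip was next, at 4.60 ± 1.27 and 6.21 ± 0.648 CPM in KO and control hearts (edgeR adjusted p = 0.258). Without KO 1 both passed in edgeR (adjusted p = 0.0315 for Agtrap and 0.00539 for Miip, whose log2 fold change was then -0.68, against -0.43 with all hearts), as they did with voom (0.00906 and 0.00583). Of 9 tested genes of the stress response that often accompany Nppb, a list that holds Nppa and Nppb themselves, 4 rose and none fell. Over all tested genes, 3.29% rose and 2.74% fell. Beside Nppb, the listed genes that rose were the slow myosin gene Myh7 (14.3-fold), the calcineurin target Rcan1 (1.53-fold) and the stress hormone gene Gdf15 (3.03-fold). Rcan1 and Gdf15 kept their calls without KO 1 and lost them without any 1 of the other libraries (edgeR adjusted p 0.0504 to 0.159), as Nppb did. The genes of this list were known from earlier results of these data and are no independent support.

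**Figure D5:**
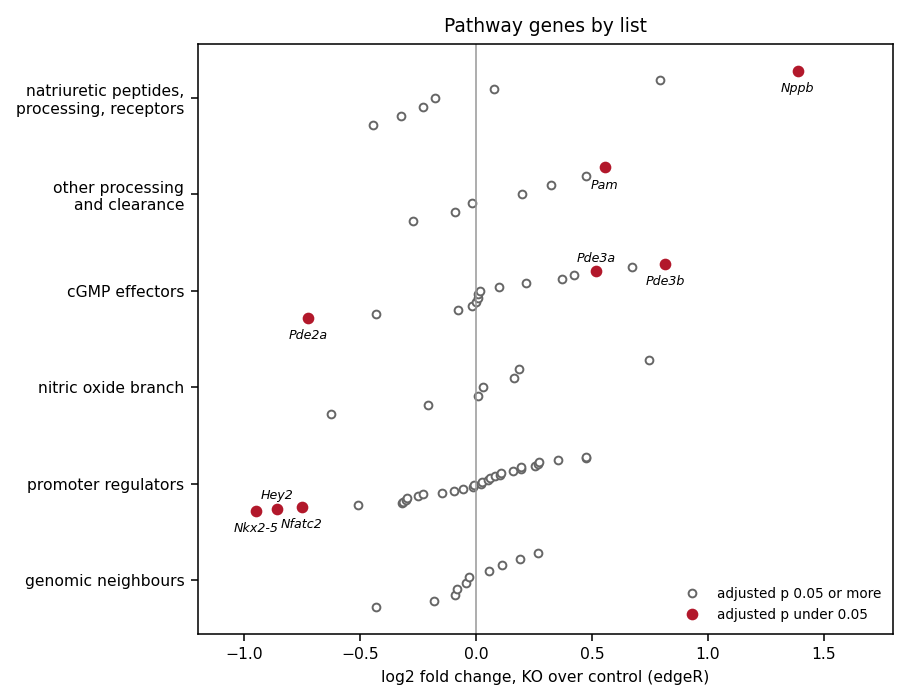
Log2 fold change, KO over control, of each tested gene of 6 lists, 1 point per gene; filled points passed edgeR's test at an adjusted p under 0.05. The filled points are Nppb, Pam, Pde3a and Pde3b on the higher side and Pde2a, Nkx2-5, Hey2 and Nfatc2 on the lower side.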

How the data were processed

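Poly(A)-selected cDNA libraries of total heart RNA were sequenced, per the labels' protocols. Build GRCm38 and the tools RSEM 1.17, cutadapt, Picard and edgeR are named in the submitters' processing notes, without roles; aligner, annotation release and strand use are not stated there. Per the file headers, the authors deposited raw values per library, whole numbers taken as RSEM's estimated counts. Their deposited normalized signal is each library's counts times 1 factor, given also as group means. The authors' deposited comparison holds a log2 fold change, a signed fold change (a score), a p-value and its adjusted value.

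Counts were tested with edgeR 4.0.16 (R 4.3.3): TMM, the default low-count filter by group (138 genes removed), a robust quasi-likelihood fit of genotype over all 6 libraries, Benjamini-Hochberg over 12686 genes. SE is the absolute log2 fold change over the square root of F; log2 CPM uses a prior count of 2. A count of 0 allows up to 3 counts, or 0.0400 to 0.0502 CPM, for counting error only. The steps were tested on simulated data, where 32.8% of 1.5-fold, 82.1% of 2-fold and 98.6% of 4-fold changes were called. Of the calls there, 7.1% were false. Changes of 1.5-fold were thus mostly missed. Ratios used exact permutation tests over hearts. Levels per kilobase used GENCODE M21. Promoter sequences are RefSeq's (GRCm38.p6), found for all 7 genes. Without stated strand use, reads of the opposite-strand genes that GENCODE places over every member but Nppb cannot be told apart from theirs. Members, lists and tests were chosen with earlier results of these data known. Named were the members, the called genes and the 2 smallest p of each other pathway list, Srsf4, Nkx2-5, markers beside a result, and the 5 genes most like Nppa and Nppb; outside this rule, Pde1c, Pde5a, Pde9a, Gata4, Gata6, Tead1, Tead4 and Srf were added after values were seen. Alternatives were RLE, upper-quartile, total-count and the authors' scaling, DESeq2 1.42.0, limma 3.58.1 (trend, voom), 2 filters, a heart-number block, leaving out each library, and an adjusted p of 0.01.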

Additional observations from a re-analysis of the deposited data

How the results depend on the processing

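Of 7 members, 1 passed with RLE, upper-quartile or the authors' factors, with DESeq2 and with either other filter. With total counts 3 passed (1 higher, 2 lower), with voom 3, with limma-trend 0 and at an adjusted p of 0.01 0; leaving out 1 library gave 0 to 1. The directions of Nppa and Furin reversed in 1 setting each, Nppa to 0.13 without KO 1 (range -0.78 to 0.13 with 1 library left out) and Furin to -0.061 with total counts; the other 5 kept theirs in all 16 fits. Other processing and clearance genes had 0 calls with total counts, 2 with voom, 0 at 0.01 and 0 to 3 with 1 library left out. For cGMP effectors these were 4 with DESeq2 or the authors' factors, 6 with voom, 1 at 0.01 and 1 to 7, for the nitric oxide branch 2 with voom and 0 to 3, and for promoter regulators 8 with voom, 5 with DESeq2 and 3 to 8. Over all genes, 765 became 1163 with total counts (274 higher and 889 lower, against 417 and 348), 3550 with voom, 1455 with DESeq2, 291 at 0.01, and 288 to 2896 with 1 library left out, the most without KO 1. The cause of these shifts was not tested. The log2 difference of the Nppb to Nppa ratio ranged from 1.53 to 2.22 with 1 heart left out, and that of Npr1 to Npr3 from -1.57 to -0.63.

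Heart numbers did not pair the libraries: deviations of same-numbered hearts correlated at -0.06, 0.15 and -0.26. With the number as a block, 505 genes and 0 members passed, with Nppb at a log2 fold change of 1.29 (edgeR adjusted p = 0.105), and the ratio differences stayed at 1.96 and -1.17 (exact sign-flip p = 0.25 and 0.5). Read depth limits Npr3 most, at 156 to 739 counts per library.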
